A study of Rattus norvegicus with 6 samples.

Results

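The miRNAs described here are the arms of miR-204 and miR-211, which are known for high levels in choroid plexus and pigment epithelium, and of miR-34b, miR-34c, miR-449a and miR-449c, which are known from ciliated cells such as ependyma. The arms of miR-34a, which shares the seed of the ciliated miRNAs but is widely expressed, are kept apart. Members were chosen by name from the deposited table, which lists 1465 miRNAs, 694 of them annotated in rat. Of 14 rows with these names 10 had a value in at least 1 library, and the other arms of miR-34a, miR-211, miR-449a and miR-449c (each the 3p arm) were blank throughout. The libraries came from medial prefrontal cortex, a frontal brain area that takes part in mood and in stress responses, of 6 rats. CMS rats (n = 3) went through chronic mild stress for 4 weeks, with 8 kinds of stressor (foot shock, water deprivation, swimming in cold water, food deprivation, restraint, clipping of the tail, a reversed light and dark cycle, and tilting of the cage) in random order. Control rats (n = 3) were handled and had their cages cleaned for the same 4 weeks and were otherwise left alone. The labels used here give no strain, sex or age, and each library is 1 rat. Values were normalized and rounded by the authors and summed to between 709674 and 736078 per library. Sequencing depth is unknown, so no counting interval can be given.

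A miRNA binds target transcripts mainly through its seed, bases 2 to 8 from its 5′ end, and miRNAs that share a seed have largely the same predicted targets. The choroid plexus secretes cerebrospinal fluid into the ventricles, and ependymal cells, which carry motile cilia, line the ventricle walls. Neither tissue is part of the cortical grey matter, so in a cortical sample their miRNAs can serve as a gauge of ventricular tissue. The gauge is not exclusive. The gene of miR-204 lies in Trpm3, an ion channel gene of choroid plexus that is also active in some neurons and glia, and miR-34c has been described in neurons of stressed rodents. Transcription of miR-34a is activated by the tumour suppressor p53.

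The mature 5p arms fell into 2 groups by seed, which are shown because the seed decides which arms can stand in for each other. RefSeq sequences of the rat assembly GRCr8 matched all 14 rows. Capitals mark the seed.
miR-204-5p: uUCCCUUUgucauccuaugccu
miR-211-5p: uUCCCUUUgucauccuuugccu
miR-34b-5p: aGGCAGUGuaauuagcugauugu
miR-34c-5p: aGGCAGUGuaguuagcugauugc
miR-449a-5p: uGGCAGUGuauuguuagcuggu
miR-449c-5p: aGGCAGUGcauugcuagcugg
miR-34a-5p: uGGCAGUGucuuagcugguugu
The seed UCCCUUU was shared by 2 arms and the seed GGCAGUG by 5. No other annotated row of the table carried either seed, among the 625 of 694 annotated rows with a RefSeq sequence. From miR-204-5p to miR-211-5p the sequence differed at 1 of 22 bases, A17U, with positions counted from 1 at the 5′ end. From miR-34c-5p to miR-34b-5p it differed at 2 of 23 bases, G11A and C23U. How the authors assigned reads to such close pairs is not stated in the labels, so the levels of miR-211-5p and miR-34b-5p, the lower member of each pair, are uncertain. In the GRCr8 gene table Mir204 lies within Trpm3 and Mir211 within Trpm1, both on chromosome 1. Mir34b and Mir34c lie side by side on chromosome 8, Mir34c within the span of Hoatz, a gene of cilia and flagella. Mir449a and Mir449c lie within 1 long non-coding RNA gene on chromosome 2, and Mir34a within another on chromosome 5.

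Both miR-204-5p and miR-34c-5p were readily measured in every library, while miR-449a-5p was low and miR-449c-5p almost absent. By mean over the 6 libraries, miR-204-5p ranked 86th and miR-34c-5p 124th among annotated miRNAs. The 3 arms of miR-204 and miR-211 together held between 0.092% and 0.196% of a library, and the 6 arms of miR-34b, miR-34c, miR-449a and miR-449c between 0.0504% and 0.102%. Of the defining ciliated miRNAs, miR-449c-5p had a value of 1 in Control 3 and was blank in the other 5 libraries. Brain miRNAs were high throughout, with miR-124-3p at no less than 2059 and miR-9a-5p at no less than 52742. The label of the ciliated arms therefore rests on miR-34b and miR-34c far more than on miR-449.

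**Figure D1:**
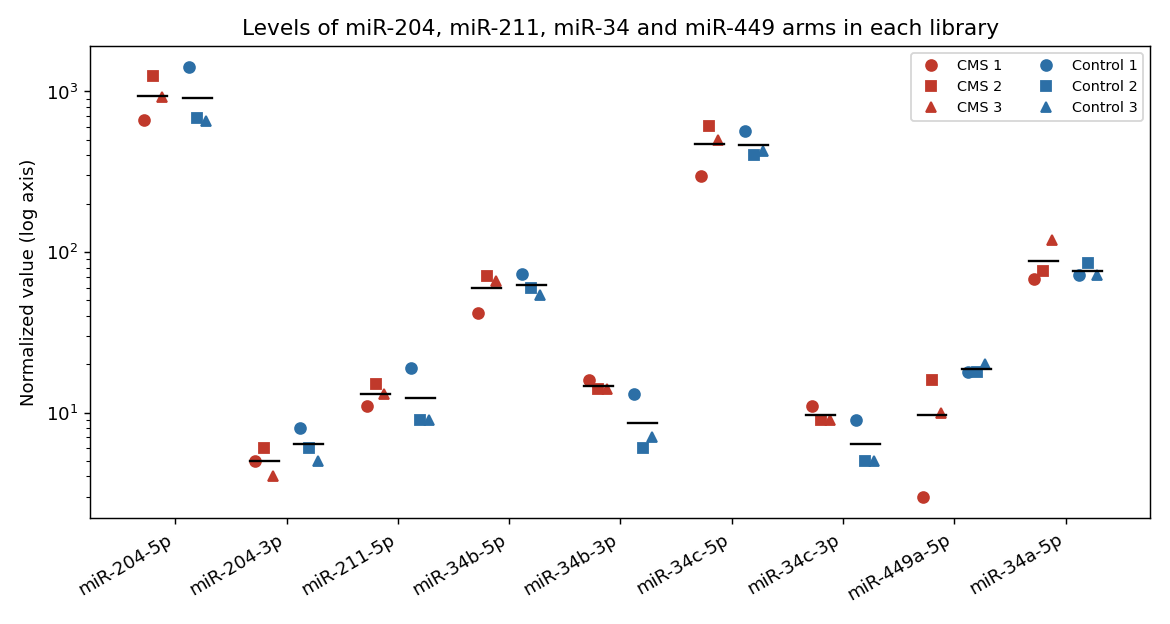
Normalized value of each arm in each library on a log axis, with CMS libraries in red and left of Control libraries in blue, a symbol for each rat and a black bar at each group mean (n = 3). The 5p arms of miR-204 and miR-34c are the highest, and for miR-34b-3p and miR-449a-5p the groups do not overlap.

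The level of miR-204-5p was 664, 1243 and 922 in CMS libraries 1 to 3, against 1413, 687 and 652 in Control libraries 1 to 3. Control 1 was the highest of the 6 libraries and CMS 2 the next, and the groups overlapped. Its close relative miR-211-5p was at 11, 15 and 13 in CMS and at 19, 9 and 9 in Control, again with Control 1 highest and CMS 2 next. The level of miR-211-5p stayed between 1.21% and 1.66% of that of miR-204-5p in the 6 libraries. The minor arm miR-204-3p was at 5, 6 and 4 in CMS and at 8, 6 and 5 in Control, values so low that rounding is coarse against them.

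Of the ciliated 5p arms, miR-34b-5p and miR-34c-5p had an order over libraries similar to that of miR-204-5p, but not the same. The order of miR-449a-5p was unlike it. The level of miR-34c-5p was 299, 614 and 499 in CMS and 566, 404 and 427 in Control. CMS 2 was highest and CMS 1 lowest, and the Control values lay between them. The neighbouring miR-34b-5p was at 42, 71 and 66 in CMS and at 73, 60 and 54 in Control, with CMS 1 again the lowest. It stayed between 11.6% and 14.9% of miR-34c-5p in every library. The level of miR-449a-5p was 3, 16 and 10 in CMS and 18, 18 and 20 in Control, so every CMS library lay below every Control library and the CMS libraries differed 5.33-fold among themselves.

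**Figure D2:**
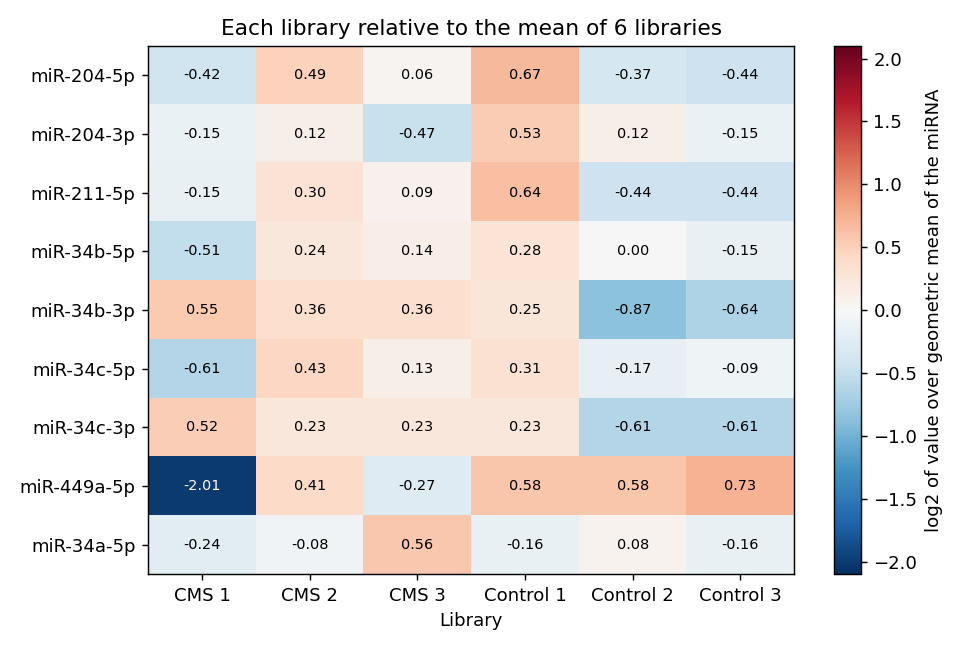
Each arm in each library, as log2 of its value over its geometric mean across the 6 libraries, with red above and blue below that mean. Both miR-204-5p and miR-211-5p are highest in Control 1 (0.67 and 0.64), and miR-449a-5p is lowest in CMS 1 (-2.01), where the 3p arms of miR-34b and miR-34c are at their highest (0.55 and 0.52).

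As a gauge of ventricular tissue, the summed choroid plexus arms stood above Controls 2 and 3 in Control 1. The summed ciliated arms did so by a smaller factor. The summed level of miR-204 and miR-211 was 1440 in Control 1, against 702 in Control 2 and 666 in Control 3, a 2.11-fold difference from the mean of these 2. The summed level of miR-34b, miR-34c, miR-449a and miR-449c, most of it miR-34c-5p, was 679 in Control 1, against 493 and 514, a 1.35-fold difference. With 1 library on a side this is a description and has no test. Among 347 annotated miRNAs with a mean of at least 10, 3.46% were more than 1.5-fold higher in Control 1 than in both other Controls, and 34.9% were highest in Control 1 of the 3. Of the 7 arms with a mean of at least 10, 3 passed that fold (miR-204-5p, miR-211-5p and miR-34b-3p), and 5 were highest in Control 1. These 7, which include miR-34a-5p, are not independent, since miR-211-5p ran with miR-204-5p and miR-34b-5p with miR-34c-5p. Over all 6 libraries, 3 of the 7 were highest in Control 1, as were 10.4% of the 347.

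The arms did not rise in Control 1 by 1 common factor. For the low 3p arms, the ratio of Control 1 to the mean of Controls 2 and 3 was 1.45 for miR-204-3p. It was 2.0 for miR-34b-3p and 1.8 for miR-34c-3p, so the choroid plexus and ciliated arms did not separate there. Among the 5p arms the ratio was 2.11 for miR-204-5p, 1.36 for miR-34c-5p, 1.28 for miR-34b-5p and 0.947 for miR-449a-5p. The level of miR-34c-5p was accordingly 40.1% of that of miR-204-5p in Control 1, the lowest share of the 6 libraries, against 58.8% and 65.5% in Controls 2 and 3. In CMS libraries 1 to 3 it was 45%, 49.4% and 54.1%. Control 1 was not alone in its level. CMS 2 had a summed level of both kinds of arms of 1988, against 2119 in Control 1, and CMS 1 had the lowest sum at 1051. In bulk tissue, more cells of a type and more RNA per cell cannot be told apart.

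Marker lists beside the choroid plexus and ciliated ones had ratios of Control 1 to the mean of Controls 2 and 3 between 0.736 for neurons and 1.11 for myelin. The miRNAs of Htr2c introns, whose host gene codes for a serotonin receptor that is strong in choroid plexus, summed to 37 in Control 1 and to 36 and 38 in Controls 2 and 3. Of the 7 rows on that list 6 had a value and 3 were tested, and miR-1298 held most of the sum at 32, 31 and 31 in Controls 1 to 3. Epithelial miRNAs (miR-200 family and miR-183 cluster, 9 of 14 rows with a value) summed to 36 in Control 1 and to 17 and 59 in the others, with miR-141-3p blank in all libraries but Control 3, where it was 1. Meningeal and fibroblast miRNAs (miR-199a and miR-214, 3 of 4 rows) summed to 119 in Control 1 against 132 and 137, and mural and endothelial miRNAs (miR-126a, miR-143 and miR-145, 6 of 6 rows) to 18092 against 22495 and 21873. Neuronal miRNAs (11 of 12 rows) summed to 86457 in Control 1 and to 117675 and 117285 in the others. That gap rests on miR-128-3p, at 18158 in Control 1 and at 54214 and 54272 in Controls 2 and 3. Without it the sum was 68299 in Control 1, against 63461 and 63013, a ratio of 1.08. Of the 10 neuronal members with a mean of at least 10, 5 were highest in Control 1 of the Controls, and the median ratio was 1.07. Among the 5 were the low arms miR-137-5p and miR-138-2-3p (means of 10.2 and 29.7) at ratios of 1.88 and 1.83. The far higher miR-137-3p and miR-138-5p (means of 1556.5 and 819), from the same hairpins, were at 0.903 and 0.909. The part of choroid plexus in the level of miR-204 in Control 1 was not tested.

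**Figure D3:**
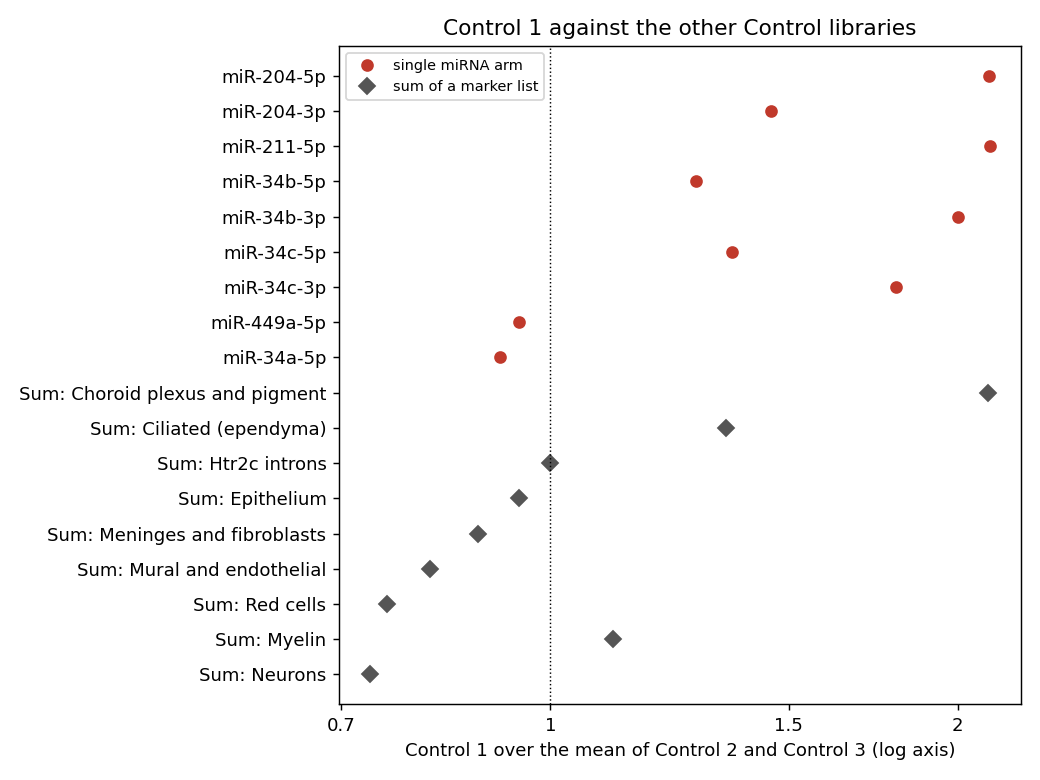
Ratio of Control 1 to the mean of Control 2 and Control 3 on a log axis, for each arm (red circles) and for the summed level of each marker list (grey diamonds), with a dotted line at equality. The arms of miR-204, miR-211, miR-34b and miR-34c lie right of the line (up to 2.11), as do the choroid plexus, ciliated and myelin sums. The arms miR-449a-5p (0.947) and miR-34a-5p (0.917) do not. Nor do the other sums, from 0.736 for neurons with miR-128-3p to 1 for the Htr2c introns.

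The design compares stressed rats with handled Control rats, and no arm of these families passed the test for a difference in level. Of the 9 arms tested, 0 were called by limma-trend across all 657 tested miRNAs (Benjamini-Hochberg adjusted p under 0.05), where 4.11% of all tested miRNAs were called. At an unadjusted p under 0.05 there was 1 arm, miR-34b-3p, where 23.3% of all were. Groups did not overlap for 2 of the 9 arms (22.2%), a share near the 25.9% of all tested miRNAs. CMS was the higher group for miR-34b-3p, where 19.6% of all were, and the lower for miR-449a-5p, where 6.24% were. The median log2 difference of the 9 arms was 0.09, against 0.08 for all tested miRNAs, and 5 of the 9 were positive. Without miR-34a-5p, which is 1 of the 5, the median was 0.03. The row of miR-449c-5p had a value in too few libraries to be tested.

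The abundant arms had nearly equal group means. The level of miR-204-5p averaged 943 ± 290.1 in CMS and 917.3 ± 429.6 in Control (SD, n = 3 each), a log2 difference of 0.09 with a 95% interval of -0.84 to 1.02 (limma adjusted p = 0.935). The level of miR-34c-5p averaged 470.7 ± 159.4 in CMS and 465.7 ± 87.7 in Control (SD, n = 3 each), a log2 difference of -0.03 with an interval of -0.76 to 0.70 (limma adjusted p = 0.999). These intervals still hold changes of over 1.5-fold in either direction. Without Control 1, Control means of the choroid plexus arms were lower, and the CMS mean of their summed level was 1.40-fold the Control mean, against 1.03-fold with all libraries. The log2 difference of miR-204-5p was then 0.45, and it did not pass (limma adjusted p = 0.34).

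Levels of miR-34b-3p were 16, 14 and 14 in CMS and 13, 6 and 7 in Control, where Control 1 lay just below the CMS range. They averaged 14.7 ± 1.15 in CMS and 8.67 ± 3.79 in Control (SD, n = 3 each), a log2 difference of 0.76 ± 0.29 (SE, limma adjusted p = 0.187). Levels of miR-34c-3p were 11, 9 and 9 in CMS and 9, 5 and 5 in Control, so Control 1 equalled the lower CMS libraries (limma adjusted p = 0.225). Both passed when Control 1 was left out and in no other alternative tried. The log2 differences were then 1.06 for miR-34b-3p and 0.82 for miR-34c-3p (limma adjusted p = 0.0277 and 0.0394), in a fit that called 8.53% of 645 tested miRNAs, and 6.51% as higher in CMS.

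Levels of miR-449a-5p averaged 9.67 ± 6.51 in CMS and 18.7 ± 1.15 in Control (SD, n = 3 each). The log2 difference of -1.11 ± 0.53 (SE) did not pass (limma adjusted p = 0.245), and it was -0.52 without CMS 1 (limma adjusted p = 0.296). The Control libraries were close together and CMS 1 was far below the other CMS libraries. Set against miR-34c-5p, which has the same seed, miR-449a-5p was at 1%, 2.61% and 2.0% in CMS and at 3.18%, 4.46% and 4.68% in Control. This ratio did not overlap between the groups, but it is no separate observation, since miR-449a-5p itself did not overlap. Groups did not overlap for 25.9% of all tested miRNAs. The ratio was chosen after its values were seen and was not tested.

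**Figure D4:**
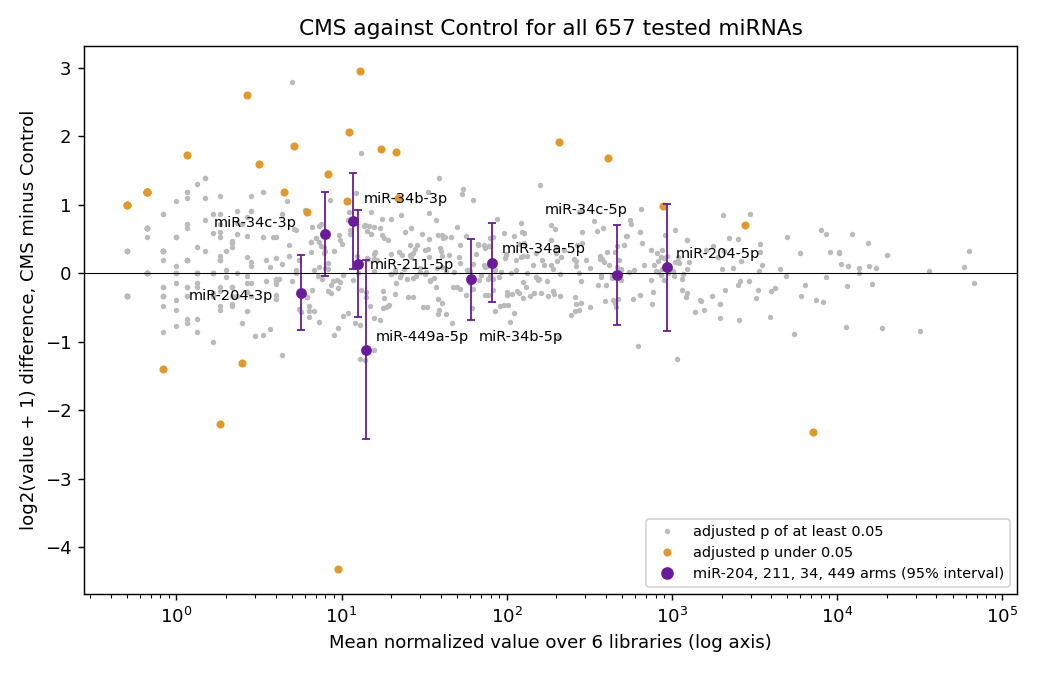
Difference in log2(value + 1) between CMS and Control against the mean value on a log axis, for all 657 tested miRNAs (grey, or orange with an adjusted p under 0.05) and for the 9 tested arms (purple, with 95% intervals from limma). None of the 9 arms is among the 27 that passed, and the arms run from -1.11 for miR-449a-5p to 0.76 for miR-34b-3p.

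The 2 arms of miR-34b and of miR-34c did not run together. Their hairpins are shown because both arms were measured, with the 5p arm and then the 3p arm in capitals (RefSeq, GRCr8, chromosome 8, minus strand).
Mir34b: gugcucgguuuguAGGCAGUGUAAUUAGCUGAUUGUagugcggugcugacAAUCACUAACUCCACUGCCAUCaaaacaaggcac
Mir34c: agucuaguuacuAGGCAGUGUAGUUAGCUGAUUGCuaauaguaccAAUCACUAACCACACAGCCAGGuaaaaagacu
The 3p arms share the seed AUCACUA, which is not the seed of the 5p arms, and differ at 5 of 22 bases. In CMS 1 the 5p arms of both hairpins were at their lowest of the 6 libraries and the 3p arms at their highest. Of the 7 arms with a mean of at least 10, 4 were lowest in CMS 1 and 1 was highest there, against 18.4% and 25.6% of the 347 annotated miRNAs of that level. As a percentage of its 5p arm, miR-34b-3p was at 38.1%, 19.7% and 21.2% in CMS and at 17.8%, 10% and 13% in Control. All CMS libraries lay above all Control libraries, and the ranges left by rounding did not touch, with CMS 2 at no less than 18.9% and Control 1 at no more than 18.6%. These ranges leave out counting error, which cannot be given, and miR-34b-3p was at only 14 in CMS 2 and 13 in Control 1. The same percentage of miR-34c was 3.68%, 1.47% and 1.80% in CMS and 1.59%, 1.24% and 1.17% in Control, with CMS 2 below Control 1.

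This arm ratio was compared after its values were seen, across 144 hairpins with both arms tested. The log2 difference of the ratio was 0.85 ± 0.31 for miR-34b and 0.61 ± 0.34 for miR-34c (SE, n = 3 each), and neither passed (limma adjusted p = 0.109 and 0.232), where 5.56% of hairpins did. For miR-204, whose 3p arm was at 0.753%, 0.483% and 0.434% of its 5p arm in CMS and at 0.566%, 0.873% and 0.767% in Control, the difference was -0.37 ± 0.28 (limma adjusted p = 0.361). The groups were likewise apart for 36.8% of the 144 hairpins and apart with CMS higher for 19.4%, so the separation seen for miR-34b is common in these libraries. Without Control 1 the ratio of miR-34b passed (log2 difference 1.03, limma adjusted p = 0.0486), in a fit where 31.2% of hairpins passed. Without CMS 1 the log2 differences were 0.56 for miR-34b and 0.23 for miR-34c (limma adjusted p = 0.247 and 0.524), so much of both rested on that library.

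**Figure D5:**
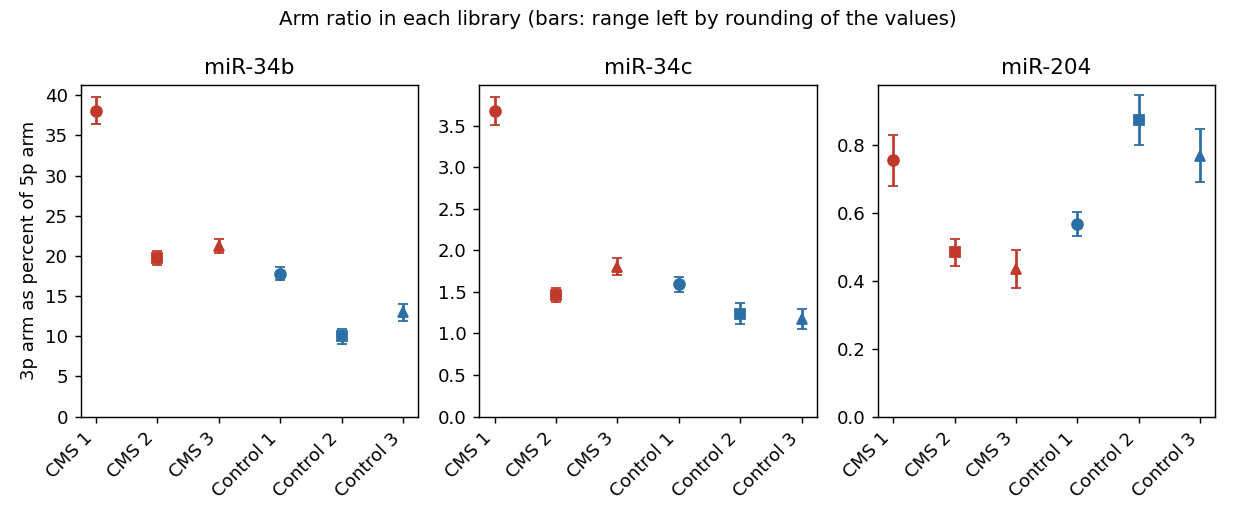
Value of the 3p arm as a percentage of the 5p arm in each library, for miR-34b, miR-34c and miR-204, with CMS in red and left of Control in blue, and bars for the range that rounding to whole numbers leaves. For miR-34b all CMS libraries (19.7% to 38.1%) lie above all Control libraries (10% to 17.8%), while for miR-34c and miR-204 the groups overlap.

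The level of miR-34a-5p followed neither pattern as a whole. It was 68, 76 and 119 in CMS and 72, 85 and 72 in Control. CMS 3 was the highest library and the other 5 lay between 68 and 85, and the groups overlapped. CMS 1 was the lowest library, as it was for miR-34b-5p and miR-34c-5p. The means were 87.7 ± 27.4 in CMS and 76.3 ± 7.51 in Control (SD, n = 3 each), a log2 difference of 0.16 with a 95% interval of -0.42 to 0.74 (limma adjusted p = 0.714). In Control 1 it was 0.917-fold the mean of Controls 2 and 3, where miR-34c-5p, which has the same seed, was at 1.36-fold.

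Among CMS libraries the 5p arms of miR-34b, miR-34c and miR-449a were lowest in CMS 1, as were miR-204-5p, miR-211-5p and miR-34a-5p. The summed levels of all 6 marker lists beside the choroid plexus, ciliated and neuronal ones were highest there. The ciliated sum in CMS 1 was 371, with the 3p arms and miR-449c-5p included, against 724 and 598 in CMS 2 and CMS 3. The meningeal and fibroblast sum was 297 in CMS 1, against 122 and 154, and the mural and endothelial sum was 30502, against 19161 and 23053. The epithelial sum was 96, against 47 and 76, the myelin sum 3161, against 1889 and 2214, and the red cell sum 443, against 260 and 328. Most of that red cell sum was miR-451-5p, at 303. The red cell arms miR-144-3p, miR-144-5p and miR-486 were highest in Control 2, at 8, 11 and 146. Other members not highest in CMS 1 included miR-183-5p (13, against 18 in Control 3) and miR-219a-5p (4, against 8 in Control 2). Of the 347 annotated miRNAs with a mean of at least 10, 25.6% were highest in CMS 1. The summed Htr2c intron miRNAs ran higher in CMS as a whole, at 110, 94 and 60, against 37, 36 and 38 in Control. Most of each sum was miR-1298, at 93, 87 and 52 in CMS and at 32, 31 and 31 in Control. Levels of miR-448-3p overlapped, at 14, 5 and 7 in CMS and at 4, 4 and 6 in Control. Among all tested miRNAs, 19.6% had every CMS value above every Control value. None of the 3 tested on the Htr2c list passed, with miR-1298 closest (limma adjusted p = 0.0517). Its order over libraries was not that of miR-204-5p, since Control 1 was level with the other Controls. The part of meninges, vessels, epithelium, myelin and red cells in the values of CMS 1 was not tested.

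In the marker lists beside the choroid plexus and ciliated ones, 1 of 40 tested miRNAs passed. It rose in CMS, as 3.35% of all tested miRNAs did, and was the neuronal minor arm miR-128-1-5p, at 15, 13 and 10 in CMS and at 4, 3 and 5 in Control (limma adjusted p = 0.0281). The epithelial list had 7 tested members, all with positive differences, where 56.5% of all tested miRNAs were positive. None of the 7 passed the test, and their median log2 difference was 0.89. Only 3 of them had a mean of at least 10, and for miR-183-5p both group means were 9. The highest member of this list, miR-182, was at 25, 15 and 17 in CMS and at 6, 7 and 20 in Control. The medians were 0.68 for the Htr2c introns, 0.77 for meninges and fibroblasts, 0.13 for myelin, -0.38 for red cells, 0.13 for mural and endothelial cells and 0.08 for neurons. Of the remaining highest members of each list, the log2 differences were 0.68 for miR-448-3p, 1.76 for miR-200b-3p, 0.26 for miR-199a-3p and 1.19 for miR-199a-5p, and none of these passed. Vascular miR-143-3p and miR-126a-3p differed by 0.10 and 0.32, red cell miR-451-5p and miR-486 by 1.29 and -0.13, myelin miR-219a-2-3p and miR-338-5p by 0.34 and -0.07, and neuronal miR-9a-5p and miR-128-3p by 0.33 and -0.84, without passing.

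Patterns over the 6 libraries were compared with those of miR-204-5p and miR-34c-5p. Likeness was measured as the root mean square difference of log2(value + 1), each centred on its own mean, over 6 libraries and 340 annotated miRNAs outside the members. Of these 340, which hold none of the choroid plexus or ciliated arms, the nearest to miR-204-5p was miR-137-5p (0.152), a low arm of a neuronal hairpin at 7, 13 and 10 in CMS and at 15, 7 and 9 in Control. The next were miR-221-5p (0.262), miR-125b-2-3p (0.263), miR-221-3p (0.265) and miR-181d-5p (0.285). Among the members, miR-211-5p was nearer (0.148) than all 340, and miR-34c-5p (0.236) was nearer than all but 1. For miR-34c-5p the nearest was miR-181d-5p (0.0732), at 494, 942 and 753 in CMS and at 863, 670 and 737 in Control. It lay nearer than the clustered miR-34b-5p (0.116). It was followed by miR-3099 (0.156), miR-181c-5p (0.166), miR-137-5p (0.172) and miR-652-3p (0.172). For miR-449a-5p, 294 of the 340 lay nearer to miR-34c-5p than it did.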

How the data were processed

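According to the labels, miRNA libraries made from total RNA of medial prefrontal cortex were sequenced on Illumina NextSeq. Novoalign 2.07.11 is named in the submitters' processing notes. The sources used here do not give the genome build, annotation, read assignment or normalization. Deposited values are treated as a score, a normalized value rounded to whole numbers by the authors. They are whole but do not vary as reads would, since library sums differ by 3.72% and low values of Control (means of 1 to 8) had a variance of only 0.491 times their mean. Blank cells were taken as 0.

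Samples were grouped by title. The test was limma-trend (limma 3.58.1, R 4.3.3) on log2(value + 1) for rows that reached 1 in 3 or more libraries, adjusted over all 657 rows. This scale makes the changes of low miRNAs look smaller than they are. The test was tried on simulated data. Members and lists were chosen with earlier results of these data known. All members are named, with the nearest 5 miRNAs by pattern, list members that passed and list members of high level. Alternatives covered scaling, filters, pseudocounts, the trend, annotated rows alone, each library left out and a replicate block. Sequences and gene positions come from RefSeq (GRCr8).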

Additional observations from a re-analysis of the deposited data

How the results depend on the processing

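No arm of these families was called in any alternative except without Control 1, where 2 were, so leaving out libraries gave 0 to 2. The count of all called miRNAs, 27, was 11 with annotated miRNAs alone and 2 to 55 over the libraries left out, the highest without Control 1 and the lowest without CMS 1, and the cause was not tested. Same-numbered libraries did not deviate together (correlations of -0.114, -0.0184 and -0.0522), and none correlated best with its own number. With the replicate block the count was 1. Without Control 1 the log2 differences of miR-34b-3p and miR-34c-3p were 1.06 and 0.82. Those of miR-34b-3p, miR-34c-3p, miR-449a-5p and miR-204-3p kept their sign in every fit that tested them. That of miR-204-5p changed sign in 4 of 15 fits, between -0.13 and 0.45. Trimmed-mean rescaling moved all differences by a median of -0.12. The log2 ratio of the summed arms, 0.03, lay between -0.21 and 0.36 over libraries left out and was -0.09 with rescaling. The ratio of Control 1 to the other Controls, 1.78, was 1.36 without miR-204-5p. Depth is unknown, and values under about 10 are limited by rounding.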
